A study of Drosophila melanogaster with 4 samples.

Results

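The troponin and tropomyosin genes of Drosophila melanogaster were followed in myoblasts sorted from embryos, the precursors that fuse to form larval body wall muscle. The 9 genes were chosen by name from the deposited gene table, which lists 17518 genes: upheld (up, troponin T), wings up A (wupA, troponin I), the troponin C genes TpnC47D, TpnC73F, TpnC4, TpnC41C and TpnC25D, and the tropomyosin genes Tm1 and Tm2. All 9 were present in the table. GFP-positive cells were sorted from homozygous embryos labelled stage 11, laid over 3 h and aged for 7 h, at 25 C. Their genotypes were WT and salm[340], with 2 libraries of polyA RNA per line. The series compares them to find genes that depend on Spalt major (Salm), a zinc finger transcription factor. The submitters call the replicates technical, so n counts libraries and each p-value measures the spread between these libraries only. The driver of the GFP, the number of embryos pooled and the lesion in the salm[340] allele are not given in the sources used here.

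Troponin and tropomyosin make striated muscle contraction depend on calcium. Tropomyosin is a coiled coil that lies along the actin filament and covers the sites where myosin binds. Troponin T anchors the troponin complex to tropomyosin, troponin I holds actin in the blocked state, and troponin C binds calcium and releases the block. Flies have a single gene each for troponin T and troponin I, which yield many forms by alternative splicing, and a family of troponin C genes that different muscles use. TpnC47D and TpnC73F serve larval and other tubular muscles, TpnC4 is the stretch-activation form of the adult flight muscle, and TpnC41C is used mainly in adult thoracic muscles. Tropomyosins are not restricted to muscle, and Tm1 also encodes cytoskeletal forms used in other cells.

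The genes are scattered over the chromosomes, except for the neighbouring tropomyosins. Troponin T (FBgn0004169, X, 13593474 to 13602578, minus strand, build BDGP6) and troponin I (FBgn0283471, X, 18105568 to 18116922, minus strand) are both X-linked. TpnC47D (FBgn0010423, 2R, 11273845 to 11275286), TpnC41C (FBgn0013348, 2R, 5065237 to 5070210) and TpnC4 (FBgn0033027, 2R, 5503437 to 5507866) are on the minus strand of 2R. TpnC73F (FBgn0010424, 3L, 17046063 to 17048390) and TpnC25D (FBgn0031692, 2L, 5216701 to 5219053) are on the plus strand. Tm1 (FBgn0003721, 3R, 15278220 to 15308779) and Tm2 (FBgn0004117, 3R, 15310193 to 15315197) follow each other on the plus strand, with 1413 bases and 0 listed genes between them. Their transcript structure differs widely. The Ensembl release 115 annotation gives up 18 transcripts with 8 different coding lengths, wupA 13 with 5, and Tm1 18 with 11, from 483 to 2133 bases. Tm2 has 6 transcripts that share 1 coding length of 852 bases, and the troponin C genes have 2 or 3 transcripts with coding lengths of 429 to 465 bases. The deposited values count fragments per gene, so isoforms of up, wupA and Tm1 were not separated. Exons of Tm1 overlap those of l(3)neo43, and exons of TpnC25D overlap those of tkv, each on the other strand. The largest overlap of a single exon pair is 222 bases for Tm1 and 54 bases for TpnC25D. Strand was not used in counting, so fragments there went to both genes. Exons of the other 7 members overlap no other counted feature. A fragment that maps to several places was counted at each, so fragments shared by similar troponin C genes, or by Tm1 and Tm2, would count for both, and the files do not separate them.

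Counts in listed genes ranged from 15170218 to 21857295 per library. In WT the mitochondrial genome took 24.8% and 29.3% of them, while in salm[340] it took 60.9% and 63.2%, which left fewer counts for nuclear genes in the mutant. Levels are given in CPM, a count scaled to a common library size, here after TMM scaling, which sets most genes to no change, and a fold change is thus relative to the bulk of genes. The RNA of salm itself was 25.7 and 24.8 CPM in WT and 93.3 and 97.8 CPM in salm[340], and it does not check the genotype labels, since the lesion is not stated. Of 12 myoblast markers, all 12 were measured, with Mef2, the general muscle transcription factor, at 254 and 262 CPM in WT and 262 and 290.4 CPM in salm[340]. Summed marker levels in WT and salm[340] were 1332 to 1351 and 1538 to 1630 CPM for myoblasts, 206.0 to 208 and 139 to 153 for hemocytes, 227 to 237 and 224 to 253 for neurons, and 675 to 683 and 873 to 927 for epidermis. They were 436 to 467 and 422 to 479 CPM for visceral muscle and heart, and 119.5 to 121 and 70.0 to 81.2 CPM for gut, fat body and germ cells. Single genes carried much of these last 2 sums. In the former, Fas3 gave 336 and 363 CPM in WT and 290 and 321 CPM in salm[340]. In the latter, Mtp gave 66.3 and 64.1 against 25.3 and 26.8 CPM, and srp is also on the hemocyte list. Of all tested genes, edgeR called 10.04% higher in salm[340] and 7.16% lower, at an adjusted p under 0.05. Of the 12 myoblast markers, 5 were called higher and 2 lower, with log2 fold changes from -0.74 for sing to 1.50 for kirre. Mef2 was among those not called (log2 fold change 0.10), so its level does not stand for the list. Among the 5 lists of other cell types, 1 of 7 hemocyte markers tested was called higher and 3 lower, 2 of 10 neural higher and 2 lower, and 2 of 7 epidermal higher and 2 lower. Of 9 visceral and heart markers, 2 were called higher and 0 lower (edgeR, 1 lower at an unadjusted p under 0.05, 0 lower in DESeq2), and of 8 in the last list 1 was higher and 1 lower. The number of matched markers at 0 in all 4 libraries was 0 in each list. The part of cell composition and of the mitochondrial share in the differences given here was not tested. In bulk samples, fewer cells of a type and less RNA per cell cannot be told apart.

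RNA of up, wupA, TpnC73F, TpnC47D, Tm1 and Tm2 was well measured in WT cells from embryos labelled stage 11. Per kb of exon, TpnC73F had the highest level of the 9 genes, at 111 ± 5.15 CPM per kb (SD, n = 2), with TpnC47D at 107 ± 1.78, up at 85.1 ± 2.92, wupA at 69.9 ± 0.127 and Tm2 at 58.6 ± 0.0220 (SD, n = 2 each). These 5 genes lay above 95.4% to 97.6% of the 10738 genes tested. TpnC73F and TpnC47D lay 111 ± 5.15 against 107 ± 1.78, with library values of 115 and 108 against 108 and 105, so this neighbouring pair lay within about their spread. Tm1 followed at 18.3 ± 0.722 CPM per kb (SD, n = 2). The other troponin C genes were at 2.10 ± 0.232 for TpnC25D, 1.22 ± 0.110 for TpnC41C and 0.317 ± 0.104 for TpnC4 (CPM per kb, SD, n = 2 each).

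The order within the upper group rested on the length used. The exon length that the files give for Tm1 is 9804 bases, while its longest annotated transcript has 3054 bases, so its level per exon length is a low estimate. By the median transcript length of each gene, Tm1 was at 0.952 of the Tm2 level in WT, against 0.312 by exon length and 0.468 by the longest coding length. By the same median length, up led in WT at 141 CPM per kb, followed by TpnC47D at 121, wupA at 119 and TpnC73F at 117. Under each of the 3 lengths, the troponin C genes in sum exceeded up in WT, at 222 against 85.1, 244 against 141 and 446 against 181 CPM per kb. TpnC25D, TpnC41C and TpnC4 took ranks 7, 8 and 9 under all 3 lengths in both lines.

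**Figure D1:**
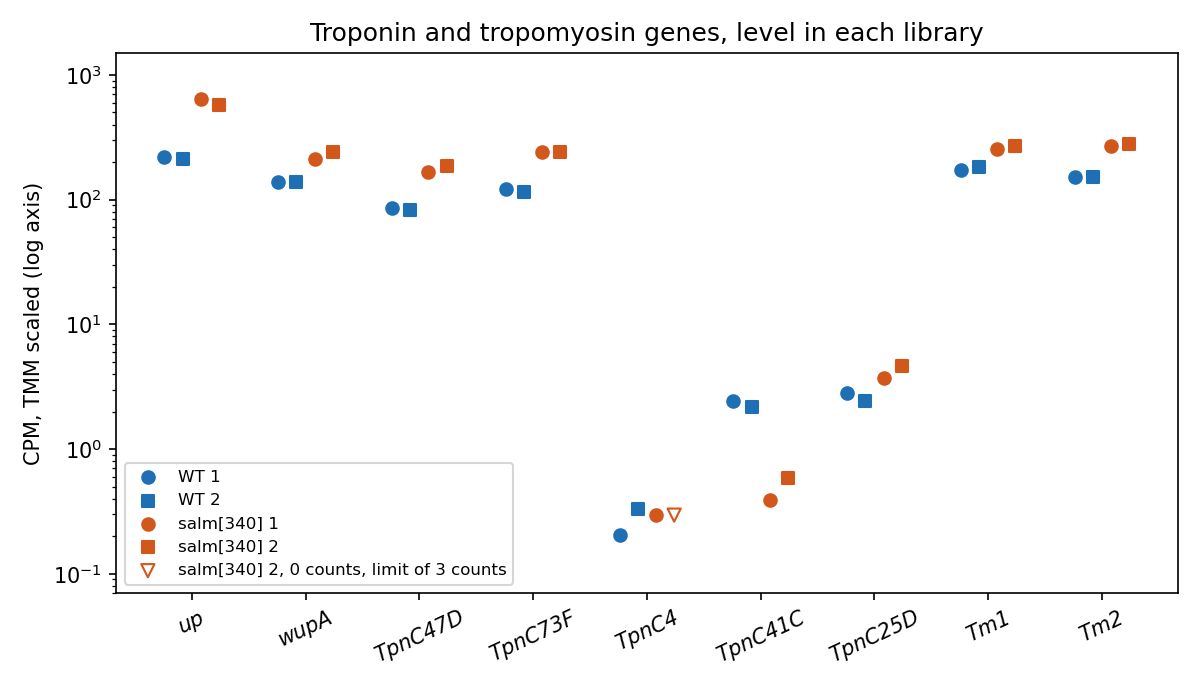
Level of each gene in each of the 4 libraries, in TMM-scaled CPM on a log axis, with circles for replicate 1 and squares for replicate 2. The salm[340] libraries lie above both WT libraries for up, wupA, TpnC47D, TpnC73F, TpnC25D, Tm1 and Tm2 and below them for TpnC41C, and the open triangle marks the 3-count limit of the library with 0 counts of TpnC4.

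Between the lines, up, wupA, TpnC47D, TpnC73F, Tm1 and Tm2 were higher in salm[340], and TpnC41C was lower. Troponin T differed most among the abundant genes, by 2.83-fold, and Tm1 least, by 1.46-fold. TpnC25D was not called, and TpnC4 was too low to be tested. Of all tested genes, 10.04% were called higher and 7.16% lower (17.2% in all; edgeR quasi-likelihood test, Benjamini-Hochberg adjusted p under 0.05), against 6 members called higher and 1 lower of 8 tested. The lines did not overlap for the 8 tested members, 7 higher and 1 lower, where 59.1% of tested genes did not overlap (28.4% higher and 30.7% lower). The 1 lower, TpnC41C, passed the low-count filter only through the WT libraries, and the lines overlapped for the untested TpnC4.

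For troponin T, the subunit that ties the complex to tropomyosin, the WT libraries held 7485 and 6342 counts and the salm[340] libraries 6597 and 5845. These gave 221 and 210.2 CPM in WT and 645 and 575 CPM in salm[340]. Each salm[340] library held more than 2 times the level of either WT library, and the salm[340] pair was further apart than the WT pair. The means were 215 ± 7.39 and 610.0 ± 49.3 CPM (SD, n = 2 each), so the log2 fold change was 1.502 with an SE of 0.0813 (edgeR adjusted p = 2.594e-06).

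Troponin I, the inhibitory subunit, was at 138 CPM in each WT library and at 211 and 242 CPM in salm[340]. Its lines did not overlap, and the salm[340] libraries differed by more than the WT libraries here as well, with replicate 2 the higher, while for up replicate 1 was the higher. The means were 138 ± 0.252 and 227 ± 21.7 CPM (SD, n = 2 each), so the log2 fold change was 0.71 with an SE of 0.0843 (edgeR adjusted p = 0.0004047).

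Among the calcium-binding subunits, TpnC47D had 85.3 and 83.3 CPM in WT and 168 and 185 CPM in salm[340], and differed by 1.06 on the log2 scale (SE 0.0827, edgeR adjusted p = 3.077e-05). TpnC73F had 122 and 114 CPM in WT and 239 and 242 CPM in salm[340], and differed by 1.03 on the log2 scale (SE 0.0756, edgeR adjusted p = 2.427e-05). In both genes every salm[340] library stood well above every WT library, and the fold changes were 2.09 and 2.04. Their means were 84.3 ± 1.41 and 118 ± 5.46 CPM in WT and 176 ± 12.3 and 241 ± 2.01 CPM in salm[340] (SD, n = 2 each).

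Of the low troponin C genes, only TpnC41C was called, as lower in salm[340]. In TpnC25D the WT counts were 96 and 73 and the salm[340] counts 38 and 47, or 2.83 and 2.42 against 3.71 and 4.62 CPM. The lines did not overlap, but the difference of 0.67 on the log2 scale (SE 0.349) was not called (edgeR adjusted p = 0.2307), and it could not be told from the spread at this depth. On the other strand, tkv overlaps exons of TpnC25D, by 54 bases in the largest overlap. That gene held many more counts, 1450 and 1307 in the WT libraries against 516 and 567 in those of salm[340]. How many TpnC25D counts came from shared fragments was not tested, and its levels, difference and share are uncertain for that reason. In TpnC41C, a gene mainly of adult thoracic muscles, the WT counts were 83 and 65 and the salm[340] counts 4 and 6, or 2.45 and 2.15 against 0.391 and 0.590 CPM. Both salm[340] libraries lay well under both WT libraries, at 0.215 of the WT level in the fit. Its log2 fold change was -2.22 (SE 0.568, edgeR adjusted p = 0.02547), and DESeq2 gave -2.23 with an adjusted p of 0.05039, just past the threshold. TpnC41C passed the low-count filter only through the WT libraries, where it is high, so the count of members called gains no support from it. In TpnC4 the WT counts were 7 and 10 and the salm[340] counts 3 and 0, and the gene did not pass the filter. The summed counts of 17 against 3 gave a scaled ratio of 0.555 with a 95% exact interval of 0.104 to 1.92, which covers counting error only, so no difference was detectable at this depth.

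The tropomyosins had smaller fold changes than troponin T, and for Tm1 that difference was not tested. Tm1, which also encodes cytoskeletal tropomyosins, had 174 and 184 CPM in WT and 254 and 268 CPM in salm[340], and differed by 0.54 on the log2 scale (SE 0.0753, edgeR adjusted p = 0.001091). Tm2, whose annotated transcripts share 1 coding length, had 153 CPM in each WT library and 268 and 279 CPM in salm[340], and differed by 0.84 on the log2 scale (SE 0.0728, edgeR adjusted p = 5.84e-05). Neither gene's lines overlapped. The means were 179 ± 7.08 against 261 ± 9.60 CPM for Tm1 and 153 ± 0.0575 against 274 ± 8.34 CPM for Tm2 (SD, n = 2 each). The exon bases that Tm1 shares with l(3)neo43, 222 in the largest overlap, could add few fragments. That gene had at most 156 counts in any library against at least 2600 for Tm1.

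**Figure D2:**
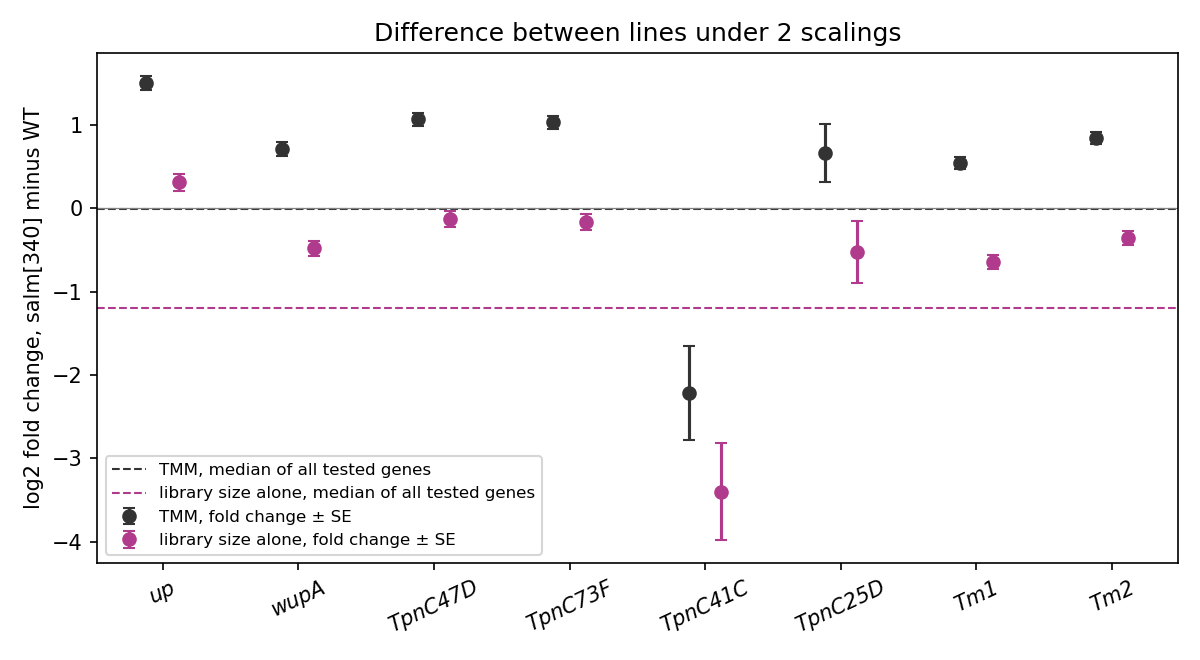
Log2 fold change, salm[340] minus WT, with its SE for the 8 members tested, under TMM scaling (black) and under library size alone (purple), with dashed lines at the median of all tested genes under each. The points of the 6 called genes lie 0.55 to 1.51 above the dashed line of each scaling. That distance is set in advance, since scaling moves all genes by nearly the same amount. Under library size alone only up lies above 0.

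These calls depended on the scaling and on the WT pair. Under library size alone, which counts the mitochondrial genes, the median of all tested genes moved from -0.01 to -1.20 on the log2 scale and the log2 fold changes of the 6 genes ran from -0.65 for Tm1 to 0.31 for up. Relative to the median gene, the 6 lay 0.55 to 1.51 higher under both scalings. A change of scaling moves all genes by nearly the same amount, so this distance could hardly differ and is no check of the calls. TMM without mitochondrial genes gave the same 6 calls. Troponin T was higher under every scaling tried, whereas wupA, TpnC47D, TpnC73F, TpnC25D, Tm1 and Tm2 changed sign under library size alone. Without WT replicate 1 or without WT replicate 2, 0 of the 8 tested members passed in edgeR, with log2 fold changes of the 6 genes between 0.49 and 1.53, adjusted p between 0.15 and 0.3189, and each time 6 members rose with an unadjusted p under 0.05. In those fits 14 of all tested genes were called, 0.128% and 0.127%, and 0% lower. The shares of all tested genes called higher and lower were 0.782% and 77.1% with library size alone, 10.1% and 7.15% with DESeq2 size factors, 10.2% and 7.20% with TMM without mitochondrial genes, 8.14% and 8.07% with no filter, 8.63% and 4.81% with DESeq2, and 11.5% and 9.48% with the replicate number as a block. They were 16.6% and 16.4% without salm[340] replicate 1 and 15.5% and 15.7% without salm[340] replicate 2.

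The members were then compared with each other. A ratio of counts within a library needs no scaling between libraries, and since it is not corrected for length only its change between lines is read. Pairs of this kind numbered 9, and with 2 libraries against 2 the exact two-sided permutation test cannot go below 0.33, so none can pass. The count ratio of up to wupA was 1.59 and 1.52 in WT and 3.05 and 2.38 in salm[340]. By the means of its log2 values, this ratio was 1.73 times as high in salm[340] (exact permutation p = 0.33, 0.375 adjusted over 9 pairs). The lines did not overlap, and the difference was 0.79 on the log2 scale, against SDs of 0.0468 in WT and 0.255 in salm[340]. The ratio of up to Tm2 was 1.44 and 1.37 in WT and 2.41 and 2.06 in salm[340] (difference of 0.66 on the log2 scale), so troponin T was also higher relative to Tm2 in both mutant libraries.

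For the troponin C genes the differences against Tm2 were smaller. TpnC47D was at 0.557 and 0.544 of the Tm2 count in WT and at 0.626 and 0.662 in salm[340] (difference of 0.23 on the log2 scale). TpnC73F was at 0.796 and 0.746 in WT and at 0.894 and 0.866 in salm[340] (difference of 0.19 on the log2 scale). In both, the salm[340] libraries lay above the WT libraries. The ratio of wupA to Tm2 was 0.904 and 0.902 in WT and 0.790 and 0.866 in salm[340] (difference of -0.13 on the log2 scale), where the SD in salm[340] was 0.0944, and the difference was -0.06 without salm[340] replicate 1 and -0.19 without replicate 2. The ratio of Tm1 to Tm2 was 1.14 and 1.20 in WT and 0.950 and 0.958 in salm[340], so the lines did not overlap and the ratio was lower in both salm[340] libraries (log2 difference -0.30, exact permutation p = 0.33). The pair TpnC73F to TpnC47D overlapped between the lines, at 1.43 and 1.37 in WT and 1.43 and 1.31 in salm[340] (log2 difference -0.03, exact permutation p = 0.667).

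Troponin T and Tm2 were also set against the myosin heavy chain gene Mhc, the motor of the thick filament, and their ratios differed in direction. The count ratio of up to Mhc was 0.681 and 0.655 in WT and 0.819 and 0.731 in salm[340] (difference of 0.21 on the log2 scale, and 0.13 without salm[340] replicate 1). That of Tm2 to Mhc was 0.473 and 0.477 in WT and 0.340 and 0.355 in salm[340] (difference of -0.45 on the log2 scale). Of the 9 pairs, 8 did not overlap between the lines, each with an exact permutation p of 0.33 (0.375 adjusted), the smallest the design allows. The pairs share genes, so these are not 8 separate results. The share of all gene pairs that do not overlap was not computed, and of single tested genes 59.1% did not overlap in CPM.

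**Figure D3:**
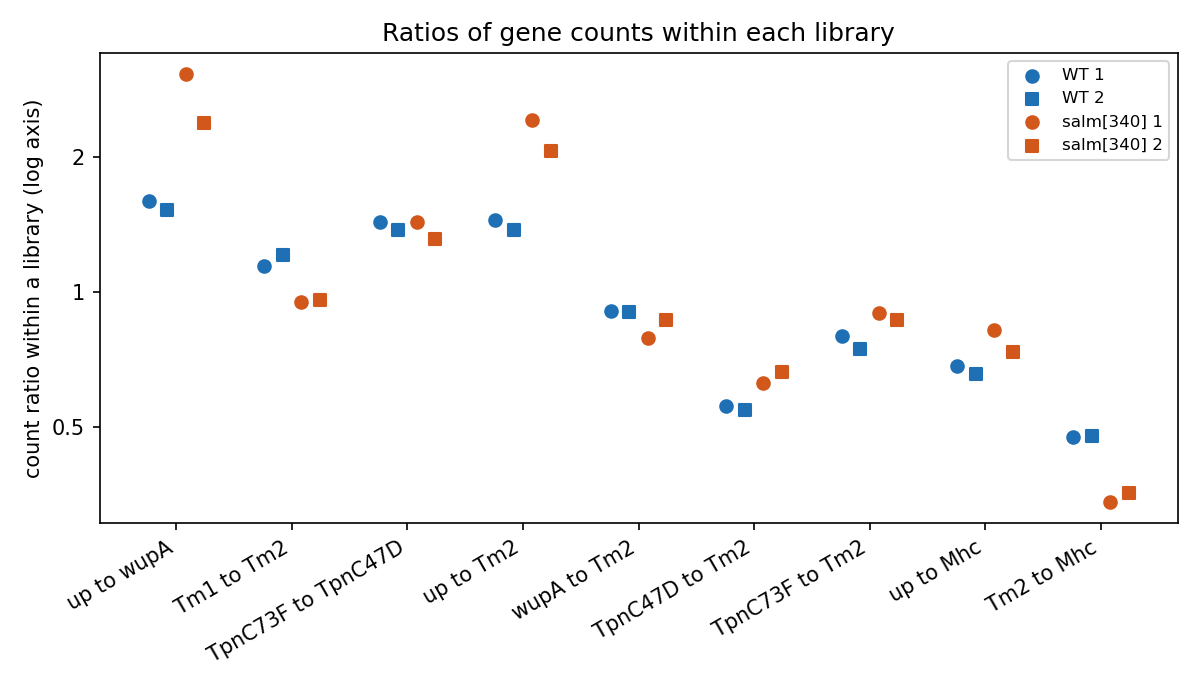
Ratio of the counts of 2 genes within each library, on a log axis, for 9 pairs. The salm[340] libraries lie above WT for up to wupA (3.05 and 2.38 against 1.59 and 1.52) and below WT for Tm1 to Tm2 and Tm2 to Mhc, while TpnC73F to TpnC47D overlaps.

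Within the troponin C family, TpnC73F and TpnC47D made up nearly all counts in both lines. TpnC73F held 57.3% and 56.4% of troponin C counts in WT and 58.2% and 56.0% in salm[340], and TpnC47D 40.1% and 41.2% against 40.8% and 42.8%. The lines overlapped for TpnC73F and for TpnC47D. Per kb of exon their shares were near equal, at 50.3% ± 0.699 and 48.1% ± 0.753 in WT and 50.1% ± 1.54 and 49.1% ± 1.50 in salm[340] (SD, n = 2 each).

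Among the small shares, that of TpnC41C was lower in salm[340]. TpnC41C held 1.15% (95% exact interval 0.918 to 1.42) and 1.06% (0.823 to 1.36) of troponin C counts in WT, and 0.0951% (0.0259 to 0.243) and 0.137% (0.0502 to 0.297) in salm[340]. The intervals, which cover counting error only, did not overlap between the lines, and this share does not depend on the scaling between libraries. It does depend on TpnC73F and TpnC47D, which make up nearly all of the sum and were called higher in salm[340]. The share also rests on the same low counts as the edgeR call of TpnC41C, so it is not separate support for that call. TpnC25D held 1.33% and 1.20% in WT and 0.903% and 1.07% in salm[340], with intervals from 0.938 to 1.62 and from 0.640 to 1.42 that overlapped. TpnC4 held 0.0970% and 0.164% in WT and 0.0713% in salm[340] replicate 1, and 0 of 4392 counts in replicate 2, where the limit of 3 counts is 0.0683% and the 95% exact interval ends at 0.0840%.

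**Figure D4:**
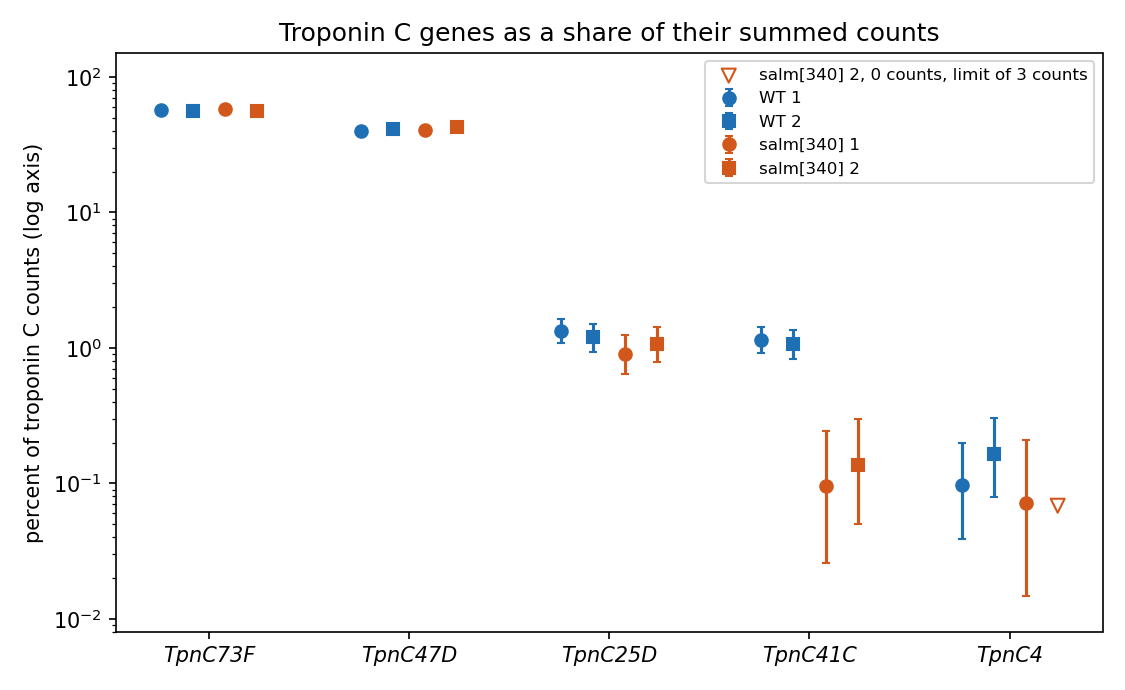
Share of each troponin C gene in the summed troponin C counts of each library, in percent on a log axis, with 95% exact binomial intervals that cover counting error only. TpnC41C is near 1.1% in WT and at 0.0951% and 0.137% in salm[340], and the open triangle marks the 3-count limit of 0.0683%, not an interval, for the library with 0 counts of TpnC4.

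The other genes of the sarcomere were mostly higher in salm[340] too. Of 26 sarcomere partners, from actins and myosins to Z-disc proteins, 24 were tested, and 19 were called higher, 9 of them at least 2-fold (3.04% of all tested genes), and 0 lower (edgeR, 0 lower at an unadjusted p under 0.05, 17 higher and 0 lower in DESeq2). Of all tested genes, 10.04% were called higher. The list's median log2 fold change was 0.70, against -0.01 over all tested genes. The 5 with the smallest adjusted p were Mhc (322 ± 2.15 to 787 ± 0.525 CPM, log2 fold change 1.29), the muscle LIM protein gene Mlp60A (33.3 ± 1.06 to 108 ± 11.7, 1.70), the myosin regulatory light chain gene Mlc2 (231 ± 4.35 to 495 ± 25.2, 1.10), the projectin gene bent (bt, 114 ± 6.80 to 255 ± 9.98, 1.16) and sals, which acts at the pointed ends of thin filaments (23.4 ± 1.07 to 59.8 ± 2.71, 1.35; SD, n = 2 each). Act57B, the main larval muscle actin on which troponin and tropomyosin sit, was at 1546 and 1549 CPM in WT and 1808 and 1916 CPM in salm[340], with a difference of 0.27 on the log2 scale (SE 0.0654, edgeR adjusted p = 0.02082), and is named after its value was seen. Without WT replicate 1, and likewise without WT replicate 2, 0 of these genes passed in edgeR, and 15 were positive with an unadjusted p under 0.05. Under library size alone 1 was called higher and 13 lower, where edgeR called 0.782% of all tested genes higher and 77.1% lower. The actin genes Act79B (-0.64) and Act87E (-0.05) were not called under TMM scaling. Without salm[340] replicate 2 the list's median log2 fold change was 0.56.

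Genes that make and carry the calcium signal were compared in the same way. Of 19 calcium handling genes, 16 were tested, 4 were called higher and 0 lower (edgeR, 6 higher and 1 lower at an unadjusted p under 0.05, 4 and 0 in DESeq2), where edgeR called 10.04% of all tested genes higher and 7.16% lower. The list's median log2 fold change was 0.33. The junctophilin gene jp, which ties the sarcoplasmic reticulum to the cell membrane, was at 17.3 ± 1.09 CPM in WT and 49.6 ± 2.45 CPM in salm[340] (SD, n = 2 each), a rise of 1.52 on the log2 scale (SE 0.114, edgeR adjusted p = 2.725e-05). The IP3 receptor gene Itpr rose by 0.73, the calcium channel gene cac by 1.05 and the calcium pump gene SERCA by 0.36 on the log2 scale. The ryanodine receptor gene RyR, the release channel of the reticulum, was at 401 and 402 CPM in WT and 402 and 389 CPM in salm[340], and was not called (log2 fold change -0.02, SE 0.0696). SclA and SclB had equal counts in every library and are not separate measurements. Stim (-0.25) and olf186-F (-0.61) were not called. The list's median log2 fold change was 0.42 without salm[340] replicate 1 and 0.14 without salm[340] replicate 2. It was 0.35 without WT replicate 1 and 0.28 without WT replicate 2. Under library size alone 1 was called higher and 11 lower, where edgeR called 0.782% of all tested genes higher and 77.1% lower.

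Of 19 genes of the general actin cytoskeleton, 6 were called higher and 1 lower in edgeR and 5 and 0 in DESeq2 (1 lower there at an unadjusted p under 0.05), with a median log2 fold change of 0.09. Of all tested genes, 10.04% were called higher and 7.16% lower in edgeR. The formin gene dia (0.86), the spectrin genes beta-Spec (0.50) and alpha-Spec (0.40), the non-muscle myosin heavy chain gene zip (0.43) and the heavy spectrin gene kst (0.29) had the smallest adjusted p of those that rose, and the non-muscle myosin light chain gene sqh fell by 0.30 on the log2 scale (edgeR adjusted p = 0.04986). The call of sqh was lost with DESeq2 size factors (edgeR adjusted p = 0.0505), in DESeq2 (adjusted p = 0.09415) and without WT replicate 1 or 2 (edgeR adjusted p = 0.4946 and 0.5173). Spectrins belong to the membrane skeleton and not to actomyosin itself. The cytoplasmic actin gene Act5C was at 626 and 625 CPM in WT and 622 and 638 CPM in salm[340]. The list's median log2 fold change was 0.16 without salm[340] replicate 1 and 0.12 without salm[340] replicate 2. It was 0.06 without WT replicate 1 and 0.10 without WT replicate 2. Under library size alone 0 were called higher (0 at an unadjusted p under 0.05 in edgeR) and 19 lower. In that fit edgeR called 0.782% of all tested genes higher and 77.1% lower.

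**Figure D5:**
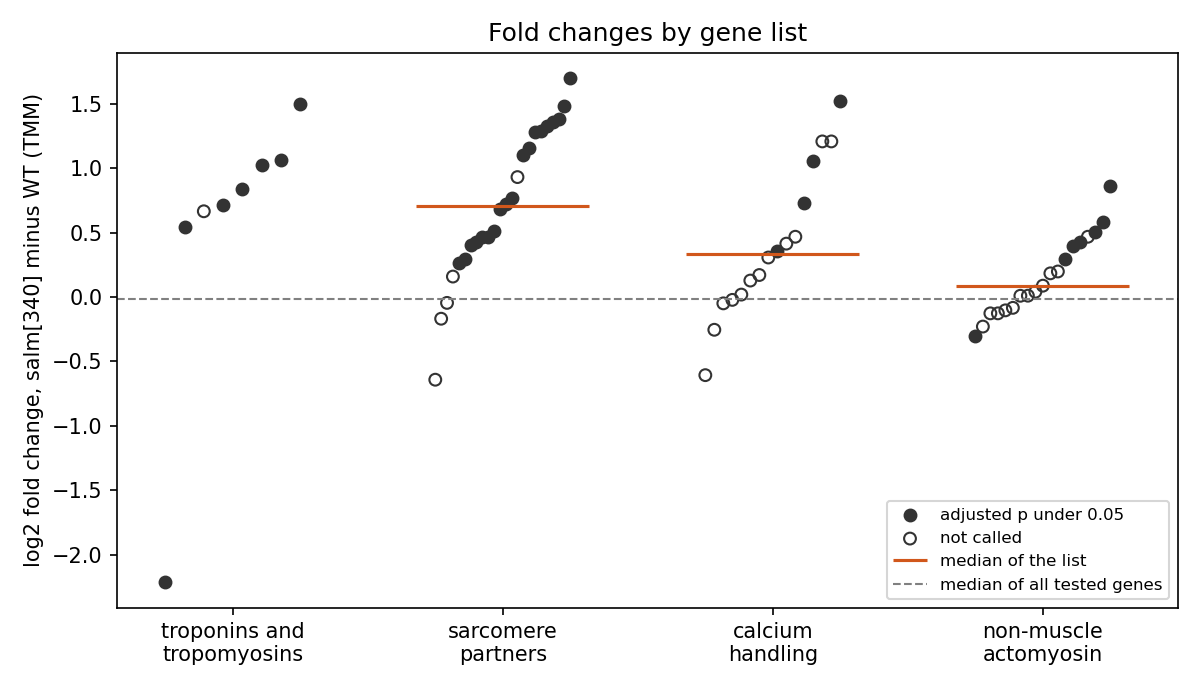
Log2 fold change, salm[340] minus WT under TMM scaling, of the 8 troponin and tropomyosin genes tested and of the tested genes of 3 lists, each sorted by value, with filled points for an edgeR adjusted p under 0.05. Orange lines mark the list medians of 0.70, 0.33 and 0.09, and the dashed line the median of all tested genes, -0.01.

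The genes closest to each main member in profile were found by the Euclidean distance of centred log2 CPM over the 4 libraries, among the 5254 genes that averaged 10 CPM or more. Nearest to up were obst-B (distance 0.130), l(2)efl (0.131) and Cys (0.155). Nearest to wupA were Mical (0.0298), pyd and CG2747 (0.0421 each), nearest to Tm1 were UQCR-Q (0.0193), Kr-h1 (0.0288) and CG45075 (0.0309), and nearest to Tm2 were CG31559 (0.0196), ATPsynCF6 (0.0264) and cora (0.0292). The neighbours of up were further away than those of the other 3 genes. None of these 12 neighbours is a member or one of the sarcomere partners. At most 9 members and 26 partners stand among the 5254 genes, so their absence is not read as a result. Of the neighbours, pyd and cora stand on the list of epidermal markers, with log2 fold changes of 0.75 and 0.87. They are the 2 of 7 tested epidermal markers that were called higher. Another 2 on that list were called lower, crb (-0.35) and Nrx-IV (-0.48).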

How the data were processed

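Per the submitters' processing notes, cutadapt 2.4 and STAR 2.5.4b were among the tools used, on build BDGP6. Raw counts of fragments were deposited, made by the authors with featureCounts 2.0.1 on the Ensembl BDGP6.32 annotation (release 104), per the file headers. The same headers show that multi-mapping fragments and those over several features counted for each one, that an overlap of at least 10 bases was required, and that strand was ignored. The series table and the library files held equal values for 17518 of 17518 listed genes.

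Both lines were compared on all 4 libraries with edgeR 4.0.16 in R 4.3.3 (TMM, filterByExpr, glmQLFit, glmQLFTest, no replicate block), and p-values were adjusted over 10738 tested genes. The filter asked for 0.553 CPM in 2 libraries, with CPM by library size alone, before TMM scaling. On that scale TpnC41C was at 0.264 and 0.383 CPM in the salm[340] libraries. SEs were derived from the log2 fold change and its F statistic. The test was also tried on counts simulated with the fitted dispersions. They share the assumptions of the test, so no support is drawn from them. DESeq2 1.42.0 was an alternative. Per-length levels used the exon length in the files, or lengths from the Ensembl release 115 annotation, where all 9 genes have the same positions. Exact tests used scipy 1.17.1.

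Named genes were the members, the 5 called genes with the smallest adjusted p per list and direction, the 3 nearest profiles of up, wupA, Tm1 and Tm2, and salm. Mef2, kirre, sing, crb, Nrx-IV, Fas3, Mtp, srp, RyR, Act5C, Act57B, Act79B, Act87E, Stim and olf186-F were outside this rule. They were named after their values were seen. Members and lists were chosen with earlier results of these data known. Of 121 list entries, 120 matched by symbol. No sequences are shown, since none were used here.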

Additional observations from a re-analysis of the deposited data

How the results depend on the processing

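DESeq2 size factors, TMM without mitochondrial genes, no filter and the replicate block each left 6 members higher and 1 lower, and DESeq2 left 6 higher and 0 lower (7 of 8 at an unadjusted p under 0.05). With library size alone, 8361 genes were called, 1 member was higher and 4 lower, sarcomere partners were 1 higher and 13 lower, calcium handling genes 1 and 11, and non-muscle actomyosin genes 0 and 19. The log2 fold changes that turned negative there were wupA -0.48, TpnC47D -0.13, TpnC73F -0.17, TpnC25D -0.53, Tm1 -0.65 and Tm2 -0.36. Leaving out a library gave 14 to 3803 called genes against 1847. The members called ran from 0 to 6 higher and 0 to 1 lower, sarcomere partners from 0 to 19 and 0 to 2, calcium handling from 0 to 10 and 0 to 2, and non-muscle actomyosin from 0 to 7 and 0 to 4. The low ends for higher calls came without WT replicate 1 and without WT replicate 2. There, the single library left in a line was taken to vary as the other line's pair did. Calcium handling had 1 gene called lower (olf186-F) with no filter and with the replicate block. Non-muscle actomyosin had 0 lower with DESeq2 size factors and with DESeq2, where sqh stayed at an unadjusted p under 0.05. The cause of these changes was not tested.

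Deviations of same-numbered libraries correlated at 0.0417 over 10738 genes, so the replicate numbers carried little shared deviation. With 2 libraries per line this cannot show whether the libraries were prepared in pairs. With the replicate number as a block, 2256 genes were called, and the members called did not change in number. Without each library in turn, the log2 difference in the ratio ran from 0.61 to 0.97 for up to wupA, from -0.34 to -0.25 for Tm1 to Tm2, from -0.10 to 0.03 for TpnC73F to TpnC47D, from -0.19 to -0.06 for wupA to Tm2, from 0.55 to 0.78 for up to Tm2, from 0.19 to 0.27 for TpnC47D to Tm2, from 0.14 to 0.24 for TpnC73F to Tm2, from 0.13 to 0.29 for up to Mhc and from -0.48 to -0.42 for Tm2 to Mhc. As raw counts without length, TpnC47D took 40.6% in WT and 41.8% in salm[340], TpnC73F 56.9% and 57.1%, TpnC41C 1.11% and 0.116% and TpnC25D 1.26% and 0.987% of troponin C. The alternative with protein lengths was not run, and the median transcript and longest coding lengths were chosen after seeing the data. Low counts limit TpnC4, TpnC41C and TpnC25D.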
